A study of Mus musculus with 82 samples.

Results

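The 78 genes described here are all genes on the array whose single platform symbol starts with Kcn, Scn, Cacn, Clcn, Gabr, Gri, Chrn, Trpc, Trpm or Trpv, the letters of the voltage-gated and ligand-gated ion channels. They were 78 of 3269 platform symbols and were tested among 21915 features (a gene name, or a probe without one), and each was read by 1 probe. By symbol they fell into 18 potassium channel pore subunits, 5 potassium channel auxiliary subunits, 4 voltage-gated and 2 epithelial sodium channel subunits, 6 calcium channel pores, 5 calcium channel auxiliary subunits, 4 members of the Clcn family, 7 GABA-A, 8 ionotropic glutamate and 8 nicotinic acetylcholine receptor subunits, and 9 transient receptor potential channels. The other two, Grip1 and Trpc4ap, meet the rule by their letters but encode partner proteins of receptors or channels and no channel subunit.

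The study measured liver RNA of BXD recombinant inbred mice, whose genomes are mosaics of C57BL6/J (B6) and DBA2/J (D2), on arrays of 2 channels. The mice were 10 to 20 weeks old and unfasted. The design text speaks of 18 BXD strains and 3 males for each, while the labels hold 17 strains and both sexes, and the sources used here do not say whether several mice were pooled into an RNA. Liver of BXD males (32 arrays), BXD females (40 arrays) and B6 males (2 arrays) was set against a mix of RNA labelled E17.5, from B6 embryos of day 17.5. Direct arrays of B6 liver with D2 liver as the other channel numbered 3 for females and 3 for males by their labels, and 2 more (1 for each sex) carried RNA labelled as enriched. No group carries a treatment or an engineered allele, and the embryo mix is 1 common reference, so its own spread lies outside every test.

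Ion channels are membrane proteins that open a pore for potassium, sodium, calcium or chloride when the membrane voltage changes, when a transmitter binds, or when heat, stretch or lipids act on them. Excitable cells of nerve and muscle use many of them together, whereas hepatocytes are not excitable and rely on a smaller set of potassium, chloride and calcium channels for cell volume, bile formation and calcium entry. The reference holds whole embryos with brain, nerve and muscle, so a channel of those tissues can appear lower in liver than in the mix without any change within liver cells. In such bulk RNA, fewer cells of a type and less RNA per cell cannot be told apart.

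Each value is a log2 ratio of liver over embryo mix, with the sign turned so that a positive value means more RNA in liver. The direction is likely rather than stated, since both channels carry the label cy3: read this way, the lowest median of 10 measured hepatocyte genes on any of the 74 arrays was 3.79 and the highest median of 9 measured embryonic genes was -1.84. The deposited files give log ratios with no base, read as log10, and no signal or background was analysed here. A ratio near 0 is therefore given alike by a gene at equal level in both RNAs and by a gene with no signal in either. After turning, the 2 orientations of an RNA correlated at 0.555 to 0.895 across features (32 pairs). The female and male labels were checked on 4 X- and Y-linked genes: Eif2s3x and Ddx3x were higher in females in 17 of 17 strains, but Uty was higher in females in 3 strains (BXD18, BXD27 and BXD28) and Eif2s3y in 2 (BXD8 and BXD27).

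A mean log2 ratio under 0.5 in size was found for 57.7% of the members, beside 66.4% of all features and 53.4% of those with a gene name. The largest differences were those of members lower in liver. Of the 78 members, 11 were at least 2-fold lower in liver at an adjusted p under 0.05 (limma over 13 strain means, Benjamini-Hochberg over all features), where 9.17% of all features were called lower. The calls in the other direction numbered 3 members (3.85%), where 4.69% of all features were called higher. Features with a gene name, as all members have, were called more often (16.2% lower and 8.52% higher), so the 14.1% of members called lower lies above the share of all features and below that of named features. The median log2 ratio was 0.07 for the members and 0.07 for all features. Without the requirement of size, 39 members were higher and 31 lower at an adjusted p under 0.05, beside 48.3% and 35.6% of all features, so 70 of 78 members differed from 0 by the test alone, and the size decided which were called.

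**Figure D1:**
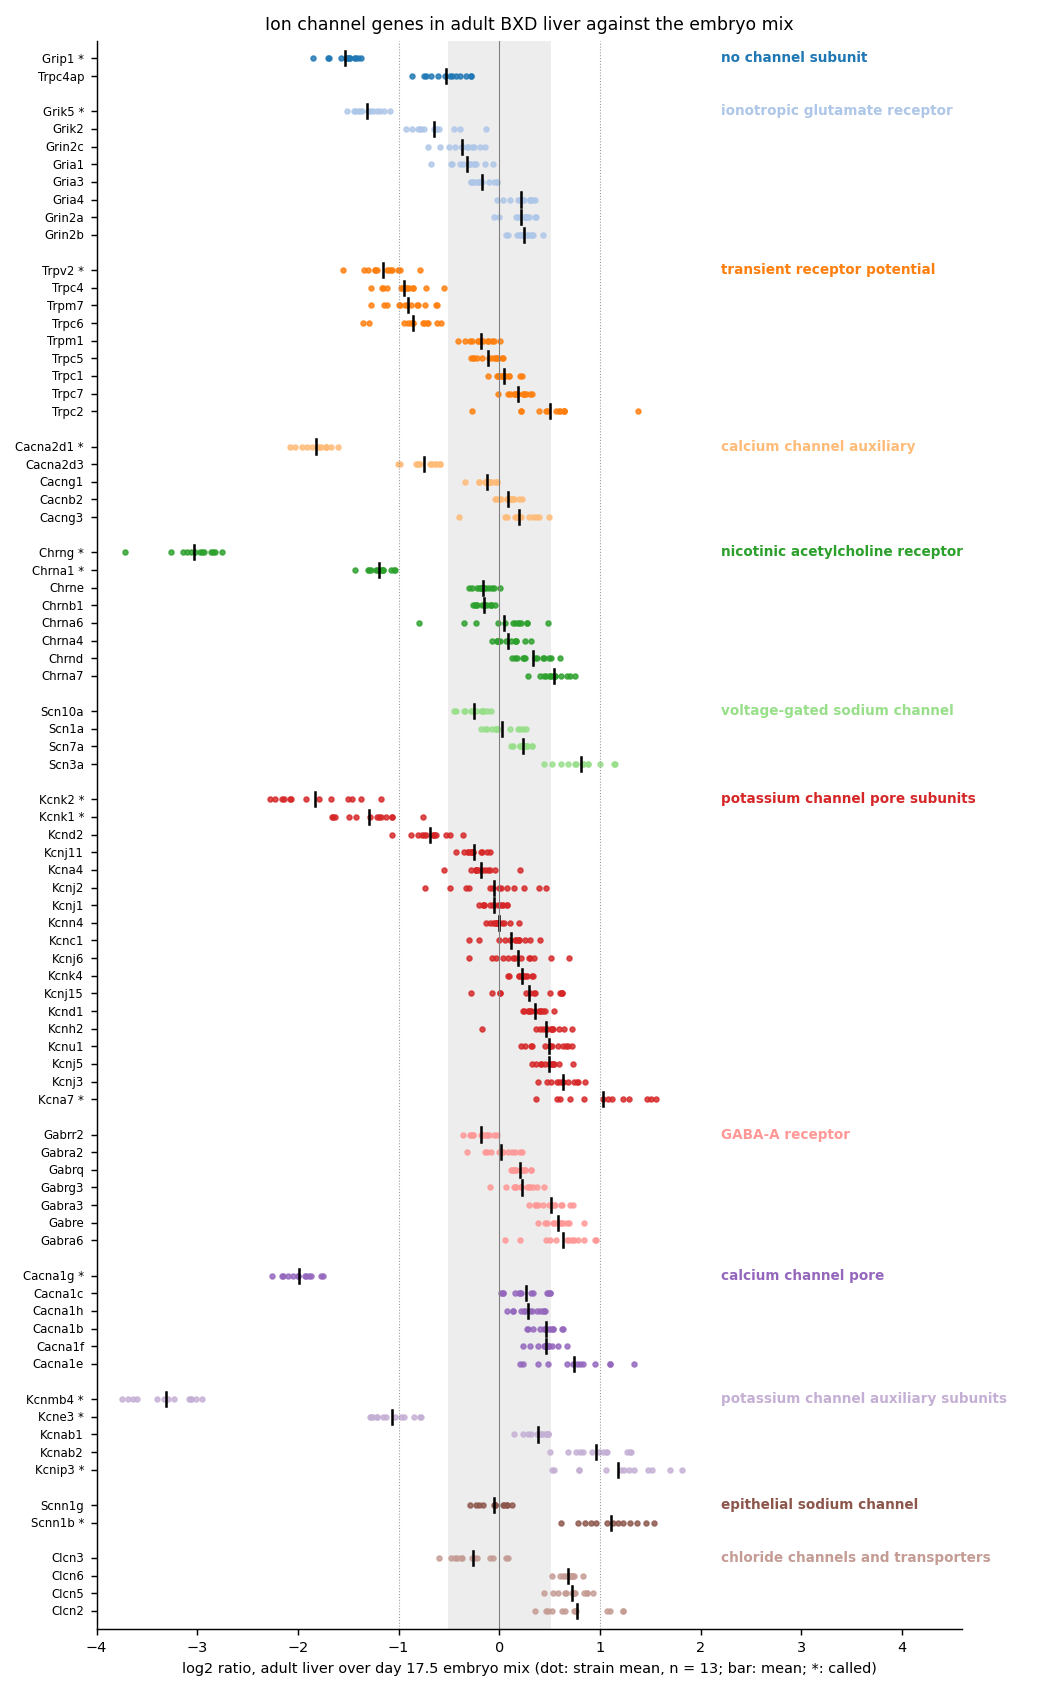
Log2 ratio of adult liver over the day 17.5 embryo mix for all 78 members, by class, with 1 dot for each of 13 strains, a bar at the mean, grey shading for ratios under 0.5 in size, dotted lines at a 2-fold difference and an asterisk on called members. Kcnmb4 (-3.31) and Chrng (-3.03) lie farthest to the left and Kcnip3 (1.18) farthest to the right, while 45 of 78 means fall in the shaded band.

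The muscle nicotinic acetylcholine receptor gave the widest contrast within one receptor. This receptor opens a cation pore at the nerve-muscle junction when acetylcholine binds. Its fetal form holds the gamma subunit (Chrng), which the epsilon subunit (Chrne) replaces in adult muscle, beside the alpha (Chrna1), beta (Chrnb1) and delta (Chrnd) subunits of both forms. The 160 bases before the RefSeq start of the 4 subunit genes with an entry are shown because these genes encode parts of the same receptor but differ in their ratios. They are written 5′ to 3′ on the strand of the gene, with the E-box words CAGCTG and CAGGTG, which myogenic factors can bind, and the N-box word CCGGAA in capitals (both strands searched). The windows are those of RefSeq on GRCm38.p6: chr1:87205651-87205810 on the plus strand for Chrng, chr2:73580339-73580498 on the minus strand for Chrna1, chr11:70619195-70619354 on the minus strand for Chrne and chr11:69795938-69796097 on the minus strand for Chrnb1.
Chrng: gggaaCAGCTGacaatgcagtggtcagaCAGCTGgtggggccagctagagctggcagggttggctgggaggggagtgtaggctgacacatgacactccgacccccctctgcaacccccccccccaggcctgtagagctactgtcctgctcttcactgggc
Chrna1: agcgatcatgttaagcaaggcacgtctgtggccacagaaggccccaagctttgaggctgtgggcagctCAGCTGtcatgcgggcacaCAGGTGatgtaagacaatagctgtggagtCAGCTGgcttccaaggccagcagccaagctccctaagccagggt
Chrne: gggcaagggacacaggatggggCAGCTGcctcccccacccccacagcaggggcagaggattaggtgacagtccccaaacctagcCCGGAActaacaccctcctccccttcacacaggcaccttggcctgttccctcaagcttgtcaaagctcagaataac
Chrnb1: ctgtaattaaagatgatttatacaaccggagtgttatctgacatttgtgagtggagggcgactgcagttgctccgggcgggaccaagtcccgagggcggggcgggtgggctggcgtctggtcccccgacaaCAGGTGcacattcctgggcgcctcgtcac

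The window of Chrng held 2 E-box words, that of Chrna1 held 3, that of Chrne 1 E-box word and 1 N-box word, and that of Chrnb1 a single E-box word. Of 32851 RefSeq windows of the same 160 bases, 19% held at least 1 of the E-box words and 2.54% held 2 or more. The N-box word was in 9.57% of the windows. Among the 65 members with an entry, 19 (29.2%) held an E-box word. These are matches of letters in a window, not sites shown to be bound.

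Chrng was 8.18-fold lower in liver than in the embryo mix (log2 -3.03 ± 0.25 SD, n = 13 strains). Its strain values ran from -3.72 through a median of -2.97 to -2.75, so every strain lay far below 0. Chrna1 was 2.29-fold lower (log2 -1.19 ± 0.11), with strain values from -1.43 through -1.17 to -1.04. Both were called (adjusted p = 3.6e-16 and 6.2e-15, limma). The adult subunit Chrne had values from -0.30 through -0.17 to 0.01, and Chrnb1 from -0.26 through -0.15 to -0.04. Chrnd lies directly beside Chrng in the RefSeq gene order with no coding gene between, yet its values ran from 0.13 to 0.60 with a mean of 0.34 ± 0.15. Over the 34 values of strain and sex, Chrnd and Chrng correlated at -0.02, a description over values that share the reference.

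Markers of skeletal and heart muscle moved the same way. Of 11 measured muscle genes, 9 were called lower in liver and none higher, led by Tnnc2, fast skeletal troponin C (-5.13 ± 0.12), Tnnt3 (-3.81 ± 0.08), Tnnt1 (-3.57 ± 0.09) and Tnnt2 (-3.41 ± 0.07). The median over the muscle list ran from -3.37 to -2.47 in females and from -3.68 to -2.55 in males. Its part in the Chrng and Chrna1 ratios was not tested. The neuronal nicotinic subunits stayed closer to 0 than Chrng and Chrna1. Chrna7, which forms a homomeric calcium-permeable receptor, had a mean of 0.54 ± 0.13, Chrna4 0.09 ± 0.12 and Chrna6 0.05 ± 0.33, and none was called.

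Potassium channel auxiliary subunits held the highest and the lowest member. Kcnmb4, the neuronal beta subunit that slows the gating of the large-conductance calcium-activated channel, was 9.95-fold lower in liver (log2 -3.31 ± 0.28). Its strain values ran from -3.75 through -3.29 to -2.95. Kcne3, a single-pass subunit that sets how potassium pores open in epithelia, was 2.10-fold lower (-1.07 ± 0.18, from -1.28 through -1.13 to -0.78). In the other direction, Kcnip3, a calcium sensor that binds A-type potassium channels and is also known as a transcriptional repressor, was 2.26-fold higher (1.18 ± 0.42). Its strain values spread from 0.52 through 1.24 to 1.82, the widest range of the members called. None of the 3 calls higher in liver held in females alone, where Kcnip3 had 0.74, Scnn1b 0.85 and Kcna7 0.66, each under the limit of 1. Kcnab2, a beta subunit with an aldo-keto reductase fold, had a mean of 0.96 ± 0.25, just under the limit of 1, and Kcnab1 had 0.39 ± 0.11. Of the 5 auxiliary subunits, 1 was called higher, 2 lower, and 1 had a mean under 0.5 in size.

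Among the 18 potassium pores, 13 (72.2%) had means under 0.5 in size, beside 66.4% of all features. The 2 called lower were both leak channels of the Kcnk family. Kcnk2 (TREK-1), opened by stretch and lipids, was 3.57-fold lower (log2 -1.83 ± 0.37, strain values from -2.28 through -1.92 to -1.17). Kcnk1 (TWIK-1) was 2.44-fold lower (-1.29 ± 0.27, from -1.66 through -1.21 to -0.76). Another member of that family, Kcnk4, stood at 0.23 ± 0.07. Kcna7, a Shaker-type voltage-gated channel, was 2.04-fold higher (1.03 ± 0.39, from 0.37 through 1.08 to 1.56). That call was lost in females alone (0.66), with forward arrays alone (0.75), with each array centred on its median (0.97) or scaled to one spread (0.98), with all 17 strains (0.95) and with BXD2 (0.99), BXD18 (0.98) or BXD21 (0.99) left out. The inward rectifiers ran from -0.25 ± 0.09 for Kcnj11, the pore of the ATP-sensitive channel, to 0.63 ± 0.13 for Kcnj3, a G-protein-gated pore.

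Among the calcium channels, 1 pore and 1 auxiliary subunit were called, both of them lower in liver. Cacna1g, the pore of a T-type channel that opens at low voltage, was 3.97-fold lower in liver (log2 -1.99 ± 0.15, strain values between -2.26 and -1.75). The other 5 pores had positive means. Cacna1h, another T-type pore, had 0.29 ± 0.13 and Cacna1c, the L-type pore of heart and smooth muscle, 0.27 ± 0.18. Cacna1b (0.46 ± 0.11) and Cacna1f (0.46 ± 0.11) lay close together, and Cacna1e, the R-type pore, was the highest at 0.74 ± 0.34. Among the auxiliary subunits, Cacna2d1, an extracellular subunit that brings the pore to the membrane, was 3.53-fold lower (-1.82 ± 0.14, from -2.08 through -1.79 to -1.60). Cacna2d3 had -0.75 ± 0.14 and was not called, and the 3 others lay between -0.12 and 0.20.

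Scnn1b was the only gene called among the sodium channels and the Clcn family. This gene, which encodes the beta subunit of the epithelial sodium channel, was 2.15-fold higher in liver (log2 1.11 ± 0.28), with strain values from 0.61 through 1.13 to 1.54. Its direct neighbour in the gene order, Scnn1g, which encodes the gamma subunit of the same channel, lay at -0.05 ± 0.13 with strains on both sides of 0. The values of both genes correlated at 0.50 over the 34 values. Of the voltage-gated sodium channels, Scn3a had 0.81 ± 0.22, Scn7a 0.24 ± 0.06, Scn1a 0.03 ± 0.15 and Scn10a -0.25 ± 0.12, and none was called. In the Clcn family, the membrane channel Clcn2 (0.77 ± 0.30) and the endosomal and lysosomal exchangers Clcn5 (0.72 ± 0.14) and Clcn6 (0.68 ± 0.07) were all positive, whereas the endosomal exchanger Clcn3 had -0.26 ± 0.21. None of the 4 reached the limit of 1.

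Among the transmitter receptors of the brain, 4 of 7 GABA-A and 6 of 8 glutamate receptor subunits had means under 0.5 in size. Such means were found for 66.4% of all features and 53.4% of the named ones. None of the 7 GABA-A subunits was called, with means from -0.18 ± 0.10 for Gabrr2 to 0.63 ± 0.27 for Gabra6. Gabra3, Gabre and Gabrq, which sit together on the X chromosome, had 0.51 ± 0.13, 0.58 ± 0.12 and 0.21 ± 0.07. Of the 8 glutamate receptor subunits, Grik5, a high-affinity kainate receptor subunit, was 2.47-fold lower (log2 -1.31 ± 0.13, strain values from -1.51 through -1.30 to -1.09). Grik2, another kainate subunit, had -0.65 ± 0.22, and the remaining 6 lay between -0.37 and 0.25. Neuronal markers were divided: 3 of 9 were called lower in liver (Uchl1 -3.57 ± 0.34, Stmn3 -3.07 ± 0.20 and Nefm -2.32 ± 0.24), and the list median ran from -0.50 to -0.08 in females and from -0.45 to 0.20 in males. The part of these cells in the Kcnmb4, Cacna1g and Grik5 ratios was not tested.

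Of the 9 transient receptor potential channels, Trpv2, a cation channel of macrophages, muscle and nerve, was called 2.23-fold lower (log2 -1.15 ± 0.19, strain values from -1.55 through -1.12 to -0.79). Trpc4 (-0.95 ± 0.19), Trpm7, a channel with its own kinase domain that carries magnesium (-0.91 ± 0.19), and Trpc6 (-0.86 ± 0.23) were 1.94-, 1.88- and 1.82-fold lower and were not called. Trpm1, Trpc5, Trpc1 and Trpc7 had means from -0.18 to 0.19. Grip1, a scaffold protein that binds glutamate receptors, was 2.89-fold lower (-1.53 ± 0.14), with strain values from -1.85 through -1.49 to -1.37. Trpc4ap, a partner of Trpc4, had -0.53 ± 0.19.

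Means under 0.5 in size were found for 45 of 78 members (57.7%), beside 66.4% of all features and 53.4% of the 3439 named ones. At a limit of 0.3 they numbered 35 members (44.9%, beside 48.2% of all features), and at a limit of 1 they numbered 64 (82.1%, beside 86.1%). Among the 45, the spread over strains was narrowest for Scn7a (SD 0.06), Gabrq, Kcnk4 and Chrnb1 (each 0.07) and Cacnb2 (0.08). It was widest for Kcnj2, an inward rectifier (SD 0.34, from -0.74 in BXD2 to 0.46 in BXD5), Chrna6 (0.33), Kcnj15 (0.30), Kcnj6 (0.26) and Cacng3 (0.22). A small mean is not a test of silence. In the same fit 37 of the 45 differed from 0 at an adjusted p under 0.05. So did 11028 of all 14556 features near 0.

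The dye orientation was a second way to read these small values. For 15 of the 45 members near 0 (33.3%) the mean of the forward arrays and the turned mean of the swapped arrays had opposite signs, beside 37.9% of all features near 0. Among the 33 members farther from 0 this held for Trpc2 alone, beside 0.503% of such features. Trpc2, an ion channel of the vomeronasal organ, had a forward mean of 1.32 and a swapped mean of -0.31, so its average of 0.50 ± 0.37 rests on the orientation. Kcnc1 (0.73 and -0.49) and Gria4 (-0.30 and 0.74) turned in the same manner. For all 14 called members both orientations had the sign of the mean, and for Kcne3 they agreed to the second decimal (-1.07 and -1.07).

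The 33 measured genes of a list of other ion transport proteins, which set the gradients that channels use, gave 3 higher and 7 lower calls with a median of 0.11. Atp2a1, the calcium pump of fast skeletal muscle, was lowest at -3.36 ± 0.19. Fxyd1, a regulator of the sodium pump, was highest at 1.71 ± 0.26. The sodium, potassium and chloride cotransporter Slc12a2 had -1.67 ± 0.12 and the calcium pump Atp2a2 -1.54 ± 0.56. Of the lists of other liver cell types, endothelial (5 measured) and macrophage genes (4 measured) held no called gene, lymphocyte genes 1 higher of 4 (Cd4, 1.10 ± 0.15), bile duct genes 1 higher of 2 (Krt18, 1.42 ± 0.58) and stellate and fibroblast genes 2 lower of 4 (Col1a2, -1.69 ± 0.20, and Lum, -1.66 ± 0.14).

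The B6 male, a parent, was set beside the BXD males on the same scale. Its value, from 1 forward and 1 swapped array, lay outside the range of the 13 BXD males for 13 of 78 members (16.7%), beside 14.9% of all features, and with 1 RNA there is no test. For 10 of the 13 the B6 value was higher, that is closer to 0. The other 3 were lower in B6 and also closer to 0. They were Chrnd (0.15 against 0.47 ± 0.15), Grin2a (-0.03 against 0.21 ± 0.13) and Clcn6 (0.61 against 0.77 ± 0.10). The run of consecutively deposited arrays that holds the B6 male has BXD females but no BXD male. Chrng had -1.86 in B6 against -3.10 ± 0.31 in BXD males (lowest -3.71, highest -2.56). Kcnk2 had -0.87 against -2.09 ± 0.55, and Kcnmb4 had -2.60 against -3.54 ± 0.33. At the other end Gabra6 (0.20 against 0.79 ± 0.40), Kcnj15 (0.16 against 0.54 ± 0.47) and Kcnip3 (1.24 against 1.61 ± 0.63) lay lower in B6 but inside the BXD range. The count moved with the orientation, to 5 members with forward arrays alone (beside 13.5% of features) and to 25 with swapped arrays alone (beside 21.3%).

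**Figure D2:**
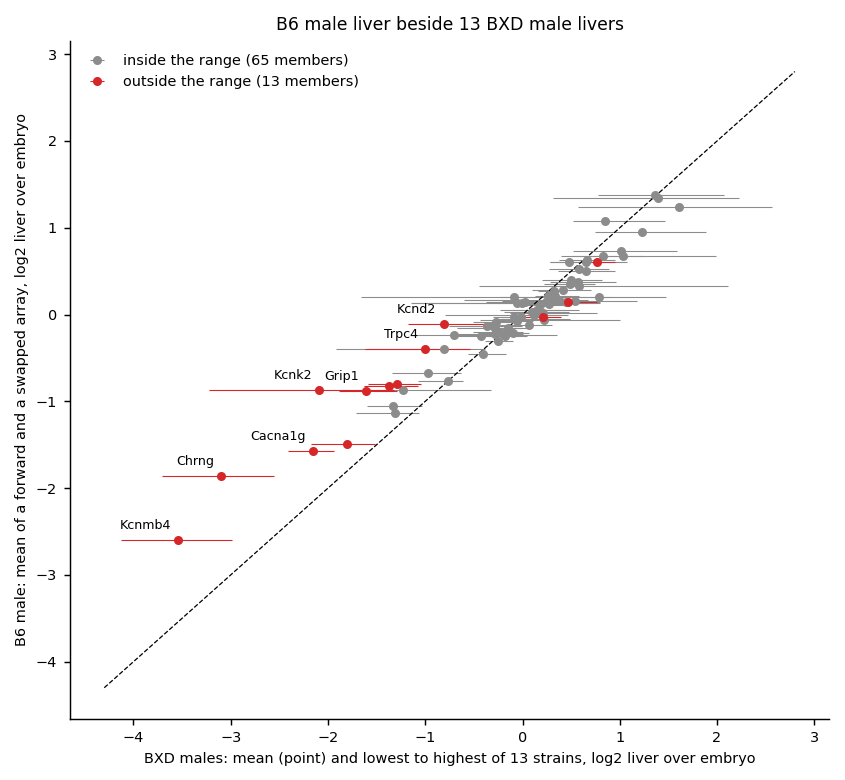
B6 male value (mean of a forward and a swapped array) against the mean of 13 BXD males for each of 78 members, both as log2 ratio of liver over embryo mix, with horizontal lines from the lowest to the highest BXD male, red for members outside that range and a dashed line of equality. The red points with low ratios, Kcnmb4 and Chrng farthest, lie above the line.

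Female and male liver differed most in a group of channels that were higher in males. Of the 78 members, 16 were lower in females (20.5%), beside 17.2% of all features, and 8 were higher (10.3%), beside 16.5% of all features (limma over 34 values of 17 strains with strain as a block, adjusted p under 0.05). Of the named features, 13.9% were lower in females and 22.7% higher. Kcnip3 had female values from 0.14 through 0.44 to 1.50 and male values from 0.57 through 1.76 to 2.56. The sexes overlapped, but the female was lower in 16 of 17 strains, by 0.94 on average (SD 0.70 over 17 differences, adjusted p = 0.00025, limma). BXD28 was the exception, with the female 0.46 higher. For Kcna7, female values ran from -0.34 through 0.43 to 1.61 and male values from 0.31 through 1.41 to 2.23, a difference of -0.82 ± 0.70.

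The same order held for 6 other members with large differences. Cacna1e was lower in females by 0.64 (SD 0.46), with female values from 0.02 through 0.44 to 1.02 and male values from 0.40 through 1.10 to 1.99. Kcnj15, an inward rectifier of epithelia, had female values on both sides of 0, from -0.63 through 0.05 to 0.45, and male values from -0.21 through 0.63 to 1.18. Its difference was -0.63 ± 0.48. Scnn1b differed by -0.57 ± 0.41 and Kcnab2 by -0.55 ± 0.32. Kcnab2 was lower in the female in every one of the 17 strains, with the smallest gap in BXD18 (-0.11). Scn3a differed by -0.41 ± 0.48 and Kcnu1, a sperm potassium channel, by -0.34 ± 0.25. Cacna1c (-0.28 ± 0.35) and Clcn5 (-0.28 ± 0.24) followed, and the 6 remaining members lower in females had differences from -0.27 (Scnn1g) to -0.12 (Gabrq). By class, 4 of the 6 calcium pores and both epithelial sodium channel subunits were called lower in females, beside 17.2% of all features and 13.9% of the named ones, but the calls of Cacna1c (adjusted p = 0.18) and Scnn1g (adjusted p = 0.077) were lost in the limma fit with the deposit run as a term, where the glutamate receptor subunits Grin2a and Grin2b were called lower.

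**Figure D3:**
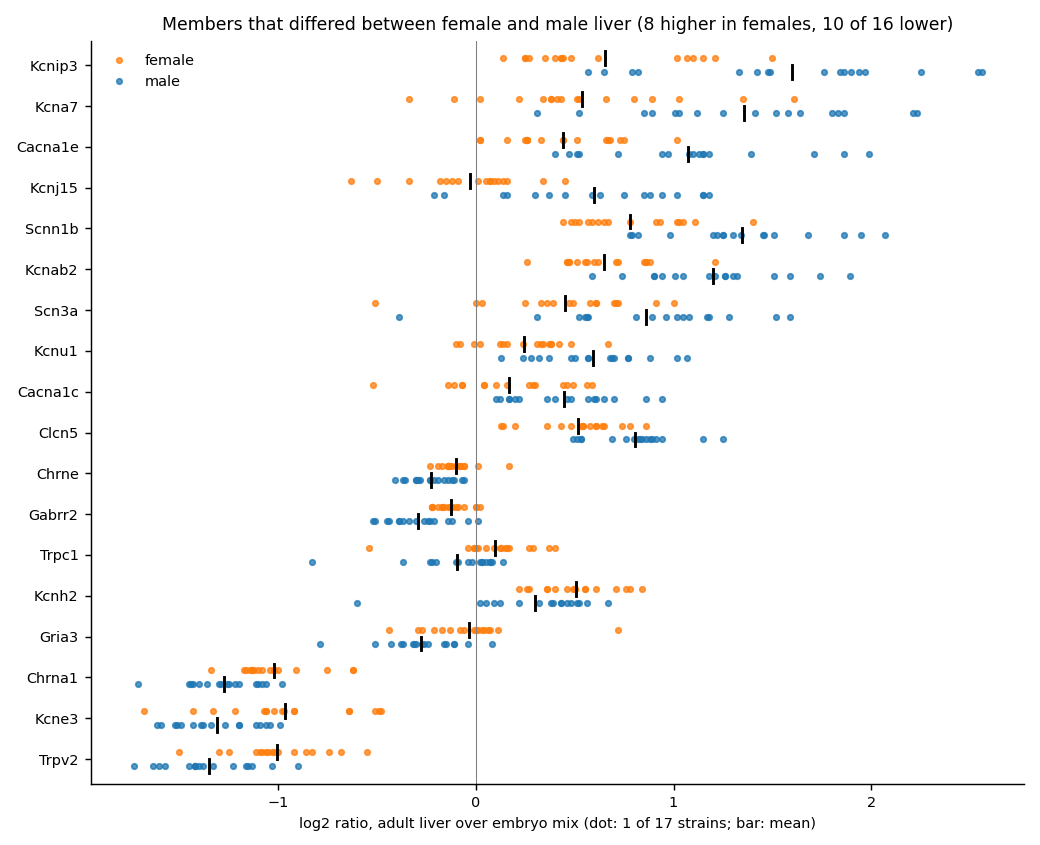
Log2 ratio of liver over embryo mix in 17 females (orange) and 17 males (blue) for the 10 members with the largest lower values in females and the 8 members higher in females, with 1 dot for each strain and a bar at the mean. Kcnip3 and Kcna7 show the widest gaps between the bars, and the ranges of the sexes overlap for every gene shown.

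The 8 members higher in females differed by less. Trpv2 was higher in females by 0.35 (SD 0.25, 16 of 17 strains, adjusted p = 0.00035, limma). Female values ran from -1.50 through -1.03 to -0.55 and male values from -1.73 through -1.40 to -0.90, so the female lay nearer to the embryo mix. Kcne3 (0.34 ± 0.33, 14 of 17 strains) and Chrna1 (0.25 ± 0.22, 15 of 17) were also below the embryo mix in every strain of both sexes. Gria3, an AMPA receptor subunit, differed by 0.24 ± 0.37, led by BXD27 with 1.51. Its call (adjusted p = 0.037, limma) was lost in 13 of 31 alternatives, with BXD2, BXD5, BXD6, BXD12, BXD16, BXD21 or BXD28 left out among them. Kcnh2, the pore of the cardiac repolarizing current, differed by 0.21 ± 0.25. Trpc1 (0.19 ± 0.20), Gabrr2 (0.17 ± 0.14) and Chrne (0.13 ± 0.11) were the smallest. The lowest member against the embryo mix, Kcnmb4, had a difference of 0.34 ± 0.98 that was not called, with BXD27 and BXD9 at its ends. In other lists, 9 neuronal genes held 2 higher and 3 lower in females, led in size by Syn1 (-0.75). The 11 muscle genes held 3 higher and 2 lower, and the 4 macrophage genes 2 higher. Over all named features, 22.7% were higher and 13.9% lower in females. The part of these lists in the sex differences was not tested.

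Males and females were spread unevenly over the runs of consecutively deposited arrays, which the labels do not call a batch. With that run as a term, 14 members were lower in females (beside 11.3% of all features) and 4 were higher (beside 10.5%). Of the 16 lower calls 11 were shared between both fits, while Cacna1c, Chrnd, Gabrq, Scn3a and Scnn1g were lost and Grin2a, Grin2b and Kcnj3 were added. Of the 8 higher calls 3 were shared (Trpv2, Chrna1 and Gabrr2), while Kcne3, Gria3, Kcnh2, Trpc1 and Chrne were lost and Clcn3 was added (0.52, adjusted p = 0.00083, limma). Kcnip3 then differed by -1.27 (adjusted p = 0.0029, limma) and Kcna7 by -1.19 (adjusted p = 0.0035), while Kcne3 had 0.10 (adjusted p = 0.55) and Scn3a -0.49 (adjusted p = 0.054). Within the 5 runs that hold both sexes, the female mean was lower in all 5 for Kcnip3 (-1.57 to -0.21), Kcna7 (-1.32 to -1.11), Scnn1b (-0.99 to -0.17) and Kcnab2 (-1.06 to -0.12). These means were not matched by strain. Only BXD8, BXD9, BXD14 and BXD27 had both sexes in one run, so sex and strain cannot be told apart in the other runs. Leaving out a strain in which a Y-linked gene went against the label gave 8 members higher and 19 lower in females without BXD28, 11 and 18 without BXD27, 8 and 17 without BXD18, and 9 and 16 without BXD8. With any single strain left out, 3174 to 4054 features were higher in females and 3429 to 4088 lower. In the 4 strains with forward arrays alone, limma called no member and no feature, with 15 members (19.2%) at an unadjusted p under 0.05, beside 14.9% of all features.

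A group of 8 of the 16 members higher in males varied together from strain to strain. It was chosen after its values were seen, so its correlations are a description with no test. Over the 34 values of strain and sex, these 8 (Kcnip3, Scnn1b, Kcna7, Kcnab2, Cacna1e, Kcnj15, Kcnu1 and Scn3a) correlated in pairs at a median of 0.89, from 0.61 (Cacna1e with Scn3a) to 0.98 (Kcnip3 with Scnn1b). The values share the embryo mix and the arrays. After each sex was set to its own mean, Scnn1b still correlated with Kcnip3 at 0.96, Kcna7 at 0.90 and Kcnab2 at 0.87. Of the members lower in females outside the group, Cacna1f had 0.81, Clcn5 0.74 and Cacna1b 0.73, beside 0.78 for Scn3a within it. The group thus has no sharp edge. Cacna1c and Scn1a had 0.53, whereas Scnn1g had 0.23, Chrnd 0.09 and Gabrq -0.05. The order of strains differed between the sexes, with BXD14 lowest and BXD18 highest for Kcnip3 in females and BXD28 lowest and BXD32 highest in males.

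Many features outside the list had values like those of Kcnip3. A correlation of at least 0.8 was found for 10 other members and for 7.36% of all features, and one of at least 0.9 for 6 members and 3.05% of features. With each sex set to its own mean, 8 members and 4.7% of features reached 0.8, and 1 member (Scnn1b) and 1.33% of features reached 0.9. The spread of the ratios over all features of an array moved with Kcnip3 at 0.59 over the 34 values (0.40 within females and 0.55 within males). That spread was 0.73 to 0.99 in females and 0.84 to 1.10 in males. With each array scaled to one spread, 15 members were lower in females and 5 higher. The median over all features of an array correlated with Kcnip3 at -0.85 within males and 0.50 within females. The median of the neuronal list did so at 0.64 (0.37 within females and 0.44 within males), that of the muscle list at -0.63 (-0.43 and -0.46) and that of the lymphocyte list at -0.71 (-0.45 and -0.69). The part of these quantities in the shared pattern was not tested.

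**Figure D4:**
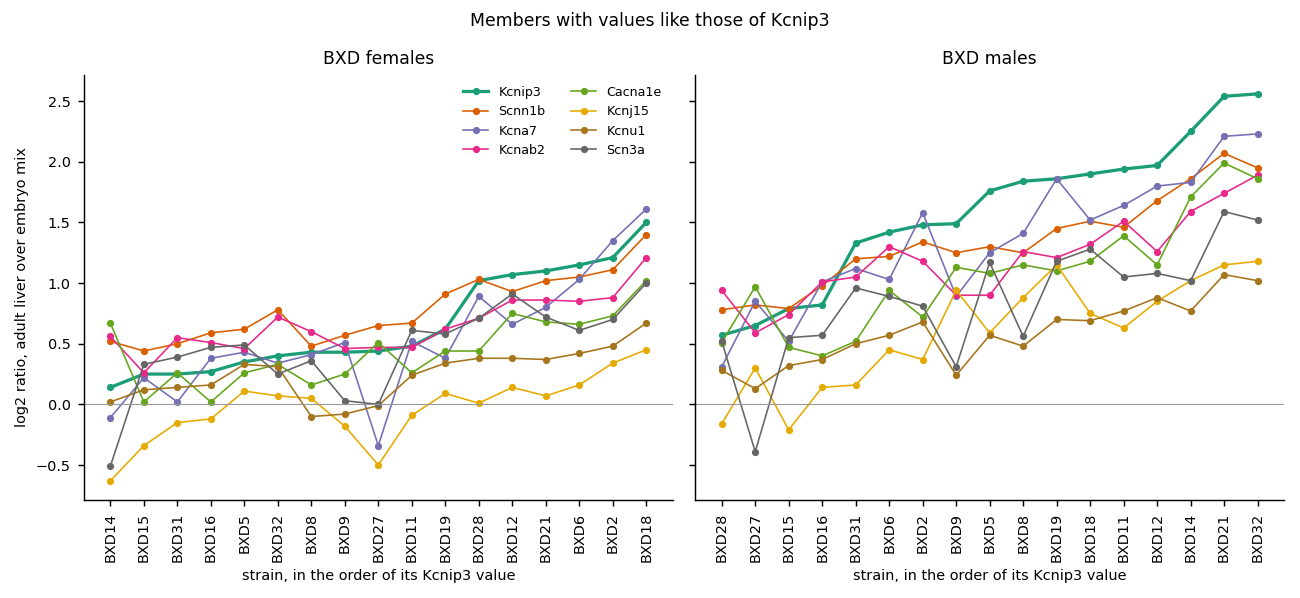
Log2 ratio of liver over embryo mix for 8 members in 17 BXD females (left) and 17 BXD males (right), with strains ordered by their Kcnip3 value in each panel. The lines tend to rise with Kcnip3 within each sex but cross in places. The male panel lies higher for Kcnip3 (0.57 to 2.56, against 0.14 to 1.50 in females).

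Strain differences among the members did not pass the test. The moderated F over 13 strains (26 values, sex as a term, limma) called none of the 78, beside 1.2% of all features, and 5 members (6.41%) had an unadjusted p under 0.05, beside 13.8% of all features. The smallest adjusted p was 0.26, for Trpv2 (F = 3.20), whose strain means ran from -1.55 in BXD28 to -0.79 in BXD16. The SD over strains was 0.19 and that of the residuals 0.15. Gabra2 (F = 2.94) ran from -0.32 in BXD2 to 0.23 in BXD19, and Kcnab2 (F = 2.79) from 0.50 in BXD15 to 1.31 in BXD32. Clcn2 (F = 2.76) ran from 0.36 in BXD18 to 1.23 in BXD6, and Kcnk1 (F = 2.72) from -1.66 in BXD6 to -0.76 in BXD32. Kcna4, a fast inactivating voltage-gated channel (F = 2.41), ran from -0.55 in BXD28 to 0.21 in BXD19. The widest of these 6 ranges was 1.87-fold, for Kcnk1.

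The female and male values of a strain were weakly related. Over 13 strains their correlation had a median of 0.14 for the members and 0.16 for all features, as a description. The 6 members with the largest F values had correlations from 0.44 (Kcna4) to 0.57 (Trpv2). Their F values come from these same female and male values, so higher correlations follow from that choice. Fitting all 17 strains called 9 members and 5589 features. The 4 added strains have forward arrays alone, so strain and orientation cannot be told apart in that fit, and it included Trpc2 and Gria4, whose orientations had opposite signs.

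The direct arrays of B6 and D2 liver called none of the channels. There were 4 values, 1 for each sex and replicate number, and with the dye orientation as a term limma called no member and no feature (0% called). Replicate 2 has swapped arrays alone, so in this fit it goes into the dye term, and the fitted ratio equals the mean of the 2 replicate 1 values. The residual comes from the gap between the sexes within each replicate number. At an unadjusted p under 0.05 there were 2 members (2.56%) and 570 features (2.6%). Of the 78, 73 had a fitted log2 ratio under 0.25 in size, and no replicate 1 value reached 1 in size. Replicate 2 was wider, with 12 members at 1 or more in size in the female and 2 in the male. In that female Chrng had 3.52, Gria4 3.30, Kcnmb4 2.48 and Kcnk2 2.28, against 0.65, 0.46, -0.11 and 0.53 in the male of the same number. The forward and swapped arrays of replicate 1 correlated at -0.0188 (male) and 0.133 (female) across features after turning. The arrays against the embryo mix gave 0.555 to 0.895. The ratios of B6 over D2 thus hardly repeated between orientations, and their direction rests on that of the arrays against the embryo mix.

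Trpc6 had B6 below D2 in all 4 values: -0.32 and -0.75 in females and -0.51 and -0.73 in males. The fitted value was -0.42 ± 0.11 (SE, adjusted p = 1.0, limma). Its forward and swapped arrays of replicate 1 nevertheless differed in sign (0.35 and -0.99 in females, 0.25 and -1.27 in males). Kcnj6, a G-protein-gated inward rectifier, had the lowest fitted ratio, that is the lowest replicate 1 mean, at -0.47 ± 0.18 (SE), from -0.46 and 0.55 in females and -0.47 and -0.06 in males. Chrna6 had -0.39 ± 0.26 (SE) with values on both sides of 0, from -0.89 to 1.10.

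The highest fitted ratios were those of Kcna7 (0.33 ± 0.33 SE), Kcnip3 (0.20 ± 0.25) and Kcnj15 (0.20 ± 0.21), which were also higher in BXD males. The order rests on replicate 1: over a plain mean of the 4 values Chrng (1.08), Gria4 (0.98), Kcnk2 (0.71), Cacng3 (0.67) and Kcnmb4 (0.63) lay above Kcna7 (0.49), and Kcnd2 (-0.72), Kcnj2 (-0.69), Kcnc1 (-0.64), Trpc6 (-0.58) and Kcnk1 (-0.50) were lowest. In Kcna7, Kcnip3 and Kcnj15 the sexes stood apart. Kcna7 had 0.67 and 1.24 in females and -0.02 and 0.07 in males, Kcnip3 had 0.60 and 0.70 in females and -0.20 and 0.12 in males, and Kcnj15 had 0.39 and 0.65 in females and 0.00 and -0.06 in males. Kcnab2 (0.45 and 0.51, against -0.05 and -0.31) and Scnn1b (0.44 and 0.57, against -0.08 and 0.00), added after their values were seen, gave the same order. Among all members, 8 (10.3%) had an unadjusted p under 0.05 for the difference between the sexes, beside 7.84% of all features, and the smallest adjusted p was 0.575 (limma), so none passed.

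**Figure D5:**
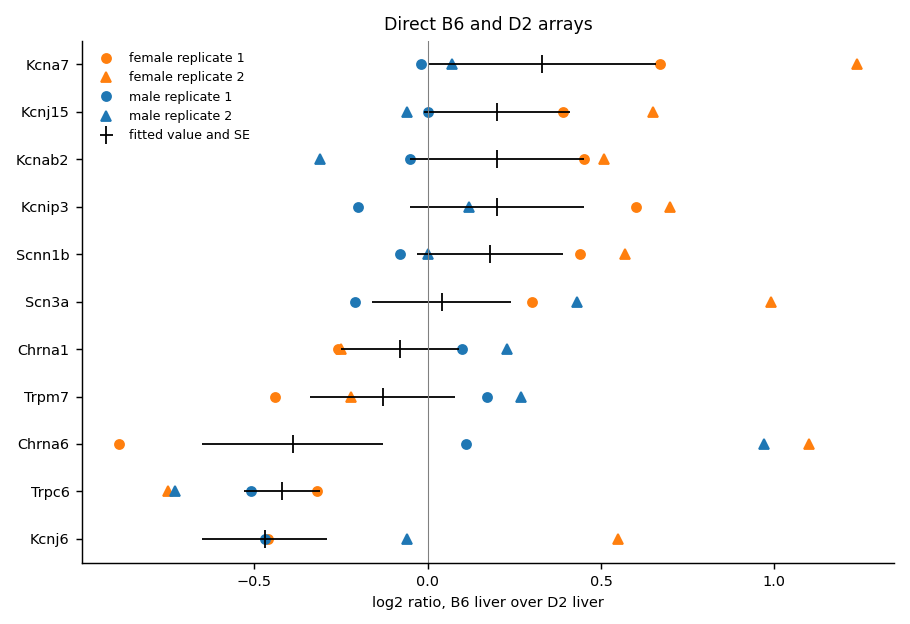
Log2 ratio of B6 over D2 liver in 2 female (orange) and 2 male (blue) values for the members with the highest and lowest 3 fitted ratios and the 8 members with an unadjusted p under 0.05 for the sex term, with a black mark and line for the fitted value and its SE. For Kcna7 both females (0.67 and 1.24) lie right of both males (-0.02 and 0.07), and all 4 points of Trpc6 lie left of 0.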

How the data were processed

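The deposited value tables hold 1 log10 ratio (channel 2 over channel 1) for each probe and array, with no unit stated per the labels. The base was inferred from a bound of 2 on either side of 0. How the authors scanned and normalized the arrays: not given in the sources used here. Values were multiplied to log2 and turned to liver over embryo mix, or B6 over D2. The arrays carried 21936 probes, and 18 symbols with several probes were averaged, leaving 21915 features. Arrays were averaged within strain, sex and orientation, then over orientations; 13 of 17 strains have both orientations. An extra BXD11 female array, labelled as a dye swap but with liver in channel 1, was used as forward.

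Tests used limma 3.58.1 in R 4.3.3 at an adjusted p of 0.05 (Benjamini-Hochberg across the 21915 features), plus a log2 size of 1 against the embryo mix, and were tested on simulated data. With no statement that samples came from separate mice, p-values measure the spread between strains or arrays only. Alternatives covered scaling, orientation, strain sets, replicate number and deposit run. The members and lists were chosen with earlier results of these data known. Named were called members (up to 10 a direction), the extremes, the 6 largest F values, and near-0 members of widest and narrowest spread. Others were added after their values were seen to complete a class. The number of arrays limits the precision. Promoter windows are RefSeq, GRCm38.p6, and matched 65 of 78 members.

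On the direct arrays the replicate numbers were not used to pair samples in the main test: with only 2 numbers, the deviations of same-numbered female and male values correlated at 0.325.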

Additional observations from a re-analysis of the deposited data

How the results depend on the processing

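Across the alternatives, 142 of 158 recomputed member counts stayed within 1.5 times the reported count. Against the embryo mix the members higher and lower numbered 39 and 31 without a size threshold, 15 and 18 at a threshold of 0.5, and 0 and 0 with the values read as log2, which shrinks every ratio. Males alone gave 6 higher and females alone 0. Leaving out each strain in turn gave 2 to 4 members higher and 11 to 11 lower, beside 1007 to 1071 and 1981 to 2029 features. Members higher in females numbered 5 with each array scaled to one spread, 4 with forward arrays alone and 4 with the deposit run as a term, and the 4 strains with forward arrays only gave 0 higher and 0 lower. Leaving out each strain gave 7 to 11 members higher and 14 to 19 lower, beside 3174 to 4054 and 3429 to 4088 features. With 1 value for each replicate number, the replicate block gave 8 higher and 19 lower, against 9 and 19 without it. Strain differences called 0 members in every setting (0 to 0 with a strain left out) but that of all 17 strains, which called 9. For B6 against D2 no setting called a member (0 to 0 with a value left out), and the replicate block is the same fit as the dye term. The sign of 3 uncalled members turned there: leaving out each value in turn gave -0.02 to 0.67 for Kcna7, -0.20 to 0.60 for Kcnip3 and -0.89 to 0.11 for Chrna6, with the turn when the first female value was left out, and Chrna6 had 0.32 without the dye term. The B6 male lay outside the BXD range for 5 members with forward and 25 with swapped arrays alone. The extra BXD11 array, left aside in an alternative chosen after seeing the data, changed no member count. The cause of these changes was not tested.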

Other observations

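The 2 arrays of enriched B6 against enriched D2 RNA, both of the swapped orientation and in no comparison above, gave single values for the members with the highest and lowest direct ratios. Trpc6 had a log2 ratio of B6 over D2 of -0.69 on the female and -0.94 on the male array. Kcnj6 had -0.39 and -0.29, and Chrna6 had -0.18 and 0.25. Kcna7 had -0.04 and -0.23, Kcnip3 had -0.37 and -0.32, and Kcnj15 had -0.22 and -0.14, so the higher B6 values of these 3 genes in the female direct arrays were not seen there.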
